A study of Arabidopsis thaliana with 12 samples.

Results

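The 2S albumins of Arabidopsis thaliana are a family of 5 seed storage protein genes, SESA1 (AT4G27140), SESA2 (AT4G27150), SESA3 (AT4G27160), SESA4 (AT4G27170) and SESA5 (AT5G54740). They were taken by these identifiers from a table of read counts with 32833 gene entries, and all 5 had enough reads to be tested. RNA from dissected mature seeds was compared between the wild type Col-0 and the Atsdr4l-5 dig2 double mutant, called the mutant from here on. Both genotypes grew in long days of 16 h light and 8 h dark, and seeds were picked about 18 days after pollination, stored for 2 days and soaked for 1 to 2 h so that embryos could be taken out. Embryo and seed coat of both genotypes gave 4 groups with 3 biological replicates each, and the seed coat samples also held the endosperm. The mutant is 1 allele combination, and the kind of lesion and the number of seeds pooled per library are not given in the sources used here.

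2S albumins are small, sulfur-rich proteins made on the endoplasmic reticulum late in seed filling. Each precursor folds around disulfide bonds, travels to the protein storage vacuole and is cut there into a small and a large chain, and the stored protein is broken down to feed the seedling. Their genes are classic targets of the B3 transcription factors ABI3, FUS3 and LEC2, which bind the RY motif, and of bZIP factors such as ABI5, which bind motifs with an ACGT core.

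In the mutant, SESA1, SESA2 and SESA3 were several-fold higher in both tissues, SESA4 was lower in the seed coat, and SESA5, the most abundant of the family, was lower in the embryo and higher in the seed coat. The 3 rises were largest for the genes that were lowest in Col-0. SESA5 held a smaller share of the family's reads in the mutant in both tissues.

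SESA1 to SESA4 lie head to tail on the plus strand of chromosome 4, in this order, within 6955 bases (TAIR10.1, the RefSeq reference used for positions and sequences; the reads were counted on TAIR10). SESA1 spans chr4:13607329-13608031, SESA2 chr4:13609341-13610075, SESA3 chr4:13611796-13612563 and SESA4 chr4:13613596-13614283. The gaps between them are 1309, 1720 and 1032 bases, and 0 other annotated genes lie inside the array. SESA5 lies alone on chromosome 5, on the minus strand at chr5:22238358-22239187. All 5 genes are annotated with 1 exon and no intron, with coding sequences of 495, 513, 495, 501 and 498 bases from SESA1 to SESA5. The aligned coding bases of the 4 tandem genes were 82.6% to 94.1% identical, highest between SESA2 and SESA3, whereas those of SESA5 were 69.5% to 72.2% identical to them. All stretches of 50 bases and all stretches of 100 bases in the 5 transcripts occurred once in the genome, so perfect reads of such length could be placed on a single member.

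The upstream sequences are shown because the family shares an arrangement of motifs that few other genes have. Capitals mark matches, on either strand, to the RY core (CATGCA) and to the ABRE core (ACGTG). The 3 promoters printed are those of the tandem gene with the largest rise, the tandem gene that was lower in the seed coat, and the separate SESA5. Each is the 250 bases before the annotated start, read 5′ to 3′ on the gene's strand, at chr4:13607079-13607328 (plus), chr4:13613346-13613595 (plus) and chr5:22239188-22239437 (minus).
SESA1: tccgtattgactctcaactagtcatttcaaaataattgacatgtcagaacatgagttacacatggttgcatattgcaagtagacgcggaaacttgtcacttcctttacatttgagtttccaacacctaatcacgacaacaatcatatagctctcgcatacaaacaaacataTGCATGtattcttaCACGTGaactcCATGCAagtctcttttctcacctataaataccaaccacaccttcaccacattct
SESA4: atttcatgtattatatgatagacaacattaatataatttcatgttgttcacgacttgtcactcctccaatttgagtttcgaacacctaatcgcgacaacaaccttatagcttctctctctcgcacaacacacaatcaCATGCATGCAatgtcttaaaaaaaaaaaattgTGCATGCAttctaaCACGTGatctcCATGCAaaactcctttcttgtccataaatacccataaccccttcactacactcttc
SESA5: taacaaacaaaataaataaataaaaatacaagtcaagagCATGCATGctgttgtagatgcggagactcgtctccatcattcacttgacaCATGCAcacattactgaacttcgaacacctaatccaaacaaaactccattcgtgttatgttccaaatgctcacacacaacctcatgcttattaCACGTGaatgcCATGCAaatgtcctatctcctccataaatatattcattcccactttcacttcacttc
The RY core had 2, 3, 7, 6 and 4 matches from SESA1 to SESA5, with overlapping matches counted, and the ABRE core had 2, 3, 2, 2 and 2. The CACGTG palindrome gives an ABRE match on each strand, so 1 such site counts as 2. Of 27443 annotated promoters of the same length, 8.43% held the RY core, 22.9% the ABRE core and 2.22% both, and 1.66% held the RY core at 2 or more places. Another motif searched, ACACNNG, a bZIP motif that can overlap the ABRE core, had 1 to 4 matches in each of the 5 promoters and occurred in 23.1% of all promoters.

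Near the start, each of the 5 promoters held CACGTG followed, after 5 bases, by CATGCA. The 17 bases are printed with the motifs in capitals and the spacer, which differs between members, in lower case.
SESA1: CACGTGaactcCATGCA
SESA2: CACGTGatcgcCATGCA
SESA3: CACGTGattgcCATGCA
SESA4: CACGTGatctcCATGCA
SESA5: CACGTGaatgcCATGCA
This element began at -65 in SESA1 and SESA2, at -67 in SESA3 and SESA4 and at -68 in SESA5, counted from the annotated start. The pattern CACGTGNNNNNCATGCA, searched on both strands, occurred in 9 of the 27443 promoters (0.0328%), of which 5 were the 2S albumins. Its letters were chosen after the members' promoters had been read, so its presence in them is a description. The 5 promoters are themselves alike, so their matches are not independent. Their aligned bases were 70.6% to 85.8% identical (52.1% to 74.3% with gaps counted). The match says nothing of whether a factor was bound in these seeds.

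**Figure D1:**
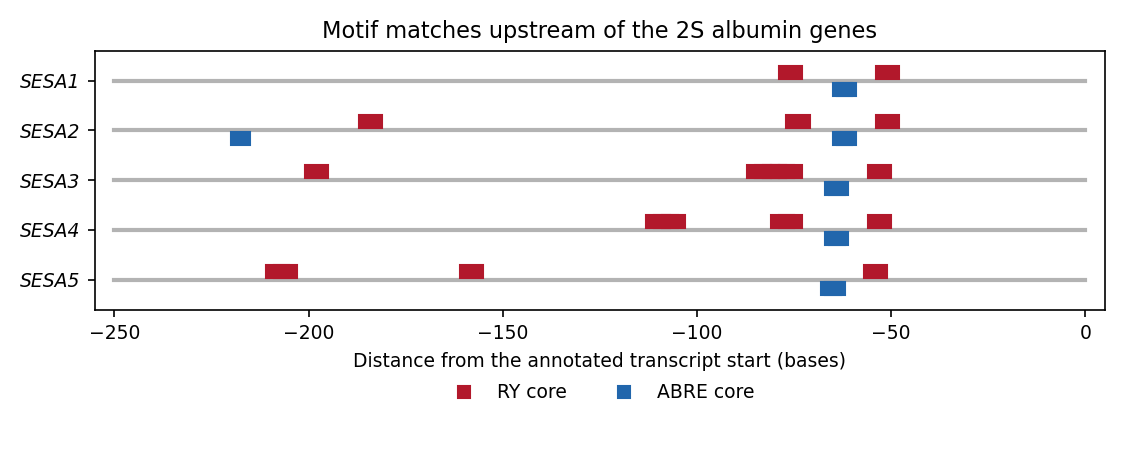
Matches to the RY core (red) and the ABRE core (blue) in the 250 bases upstream of each 2S albumin gene, with the distance from the annotated transcript start on the x axis in bases. A blue and a red match stand side by side in all 5 promoters between -68 and -49. The 4 tandem genes, but not SESA5, also have a red match between -79 and -72, and other matches farther upstream differ between the genes.

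The 12 libraries held 10301817 to 17619031 reads on genes, and the lowest count of any member in any library was 804 reads. Levels are given as CPM (counts scaled to the library's total) on TMM-scaled library sizes, with mean ± SD over n = 3 libraries. Changes are log2 fold changes with standard error (SE) from edgeR's quasi-likelihood test, and a gene is called at a Benjamini-Hochberg adjusted p under 0.05 over 16238 tested genes. These tissues are bulk samples, so fewer cells of a type and less RNA per cell cannot be told apart. DIG2, named in the genotype, stood in the embryos of Col-0 and the mutant at 133 ± 59.2 and 135 ± 16.6 CPM, and in their seed coats at 161 ± 50.8 and 142 ± 31.7 CPM. Without the position of the lesion this level does not check the labels. Within the Col-0 seed coat, the library numbered 1 was the lowest of its group for all 5 members, and values without it are given where they change a call.

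**Figure D2:**
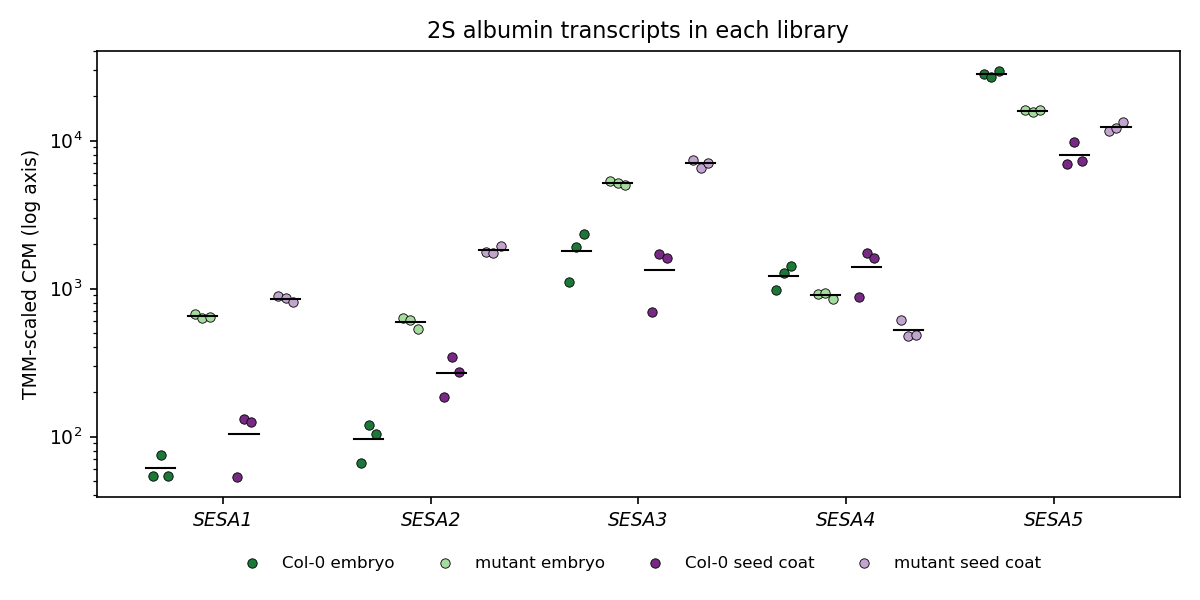
TMM-scaled CPM (log axis) of each 2S albumin gene in the 12 libraries; points are single libraries, coloured by group, and bars are means of 3. For SESA1, SESA2 and SESA3 every mutant library lies above every Col-0 library of its tissue, SESA4 lies lower in the mutant, and the mean of SESA5 goes from 28182 to 15857 CPM in embryos and from 7981 to 12339 CPM in seed coats.

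In the embryo, SESA1 stood at 54.0, 75.2 and 54.1 CPM in Col-0 and at 672, 637 and 639.5 CPM in the mutant. The lowest mutant library was thus far above the highest Col-0 library. The means of 61.1 ± 12.2 and 649.6 ± 19.8 CPM differed by a log2 change of 3.41 (SE 0.28, edgeR adjusted p = 1.24e-06), or 10.6-fold. SESA1 is the first gene of the tandem array and had the lowest level of the family in Col-0. Of the 16238 genes tested, 185 had a log2 change at or above that of SESA1.

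SESA2, its neighbour, stood at 66.0, 120.0 and 105 CPM in embryos of Col-0 and at 635, 608 and 533 CPM in those of the mutant. The groups again lay far apart, with means of 96.9 ± 27.8 and 592 ± 53.1 CPM and a log2 change of 2.61 (SE 0.24, edgeR adjusted p = 3.07e-06). SESA3, the most abundant tandem gene in the embryo, stood at 1110.5, 1922 and 2322 CPM in Col-0 and at 5367, 5192 and 4999.9 CPM in the mutant. Its Col-0 libraries were spread over a wide range and its mutant libraries lay close together and higher. The log2 change was 1.54 (SE 0.31, edgeR adjusted p = 0.00146), from 1785 ± 618 to 5187 ± 184 CPM.

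SESA4, the last gene of the array, stood at 975, 1269 and 1422 CPM in embryos of Col-0 and at 914, 927 and 851 CPM in those of the mutant. The mutant libraries were all lower, but the nearest pair was close. The log2 change of -0.45 (SE 0.22) was not called (edgeR adjusted p = 0.115), and means were 1222 ± 227 and 898 ± 40.5 CPM. It was called when only the embryo libraries were fitted (log2 -0.50, adjusted p = 0.0270), without the Col-0 seed coat library numbered 1 (log2 -0.44, adjusted p = 0.0292) and with total reads as the only scaling (log2 -0.79, adjusted p = 0.00399).

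SESA5 stood at 28113, 26955 and 29477 CPM in embryos of Col-0 and at 16080.3, 15533 and 15958 CPM in those of the mutant. Both groups were narrow and did not overlap. SESA5 fell from 28182 ± 1262 to 15857 ± 287 CPM, a log2 change of -0.83 (SE 0.16, edgeR adjusted p = 0.00129), or 1.78-fold lower. In the embryo 4 of the 5 members were thus called, 3 higher and 1 lower, in a comparison in which 46.9% of all tested genes were called, 25.4% higher and 21.4% lower. The replicates of all 5 members did not overlap, as was so for 57.3% of tested genes.

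In the seed coat, SESA1 stood at 53.6, 131 and 126 CPM in Col-0 and at 884, 865 and 807 CPM in the mutant. The mutant libraries were again far above all Col-0 libraries. The means were 104 ± 43.3 and 852 ± 40.5 CPM, and SESA1 rose by a log2 change of 3.04 (SE 0.27, edgeR adjusted p = 2.59e-06), or 8.24-fold. SESA2 stood at 186, 346 and 271 CPM in Col-0 and at 1757, 1744 and 1925 CPM in the mutant. It rose from 268 ± 80.2 to 1809 ± 101 CPM (log2 2.76, SE 0.24, edgeR adjusted p = 1.89e-06), with no overlap between the groups.

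SESA3 stood at 692, 1699 and 1617 CPM in Col-0 seed coat and at 7432, 6517 and 7085 CPM in mutant seed coat. The lowest mutant value was well above the highest Col-0 value. SESA3 rose from 1336 ± 559 to 7011 ± 462 CPM (log2 2.39, SE 0.32, edgeR adjusted p = 6.50e-05), or 5.25-fold. SESA4 stood at 879, 1733 and 1597 CPM in Col-0 and at 616, 477 and 487 CPM in the mutant. Here the direction was the opposite of that of the other tandem genes, and all mutant libraries were below all Col-0 libraries. SESA4 fell from 1403 ± 459 to 527 ± 77.6 CPM (log2 -1.41, SE 0.22, edgeR adjusted p = 0.000234), or 2.66-fold.

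SESA5 stood at 6920.2, 9713 and 7311 CPM in Col-0 seed coat and at 11528, 12169.6 and 13320.1 CPM in mutant seed coat. Each mutant library was higher than each Col-0 library. SESA5 rose from 7981 ± 1512 to 12339 ± 908 CPM, a log2 change of 0.63 (SE 0.16, edgeR adjusted p = 0.00712), or 1.55-fold, the smallest change of the 5. All 5 members were called in the seed coat, 4 higher and 1 lower, where 48.4% of all tested genes were called, 24.8% higher and 23.5% lower. Replicates did not overlap for all 5 members and for 55.5% of tested genes. Without the Col-0 library numbered 1 the 5 calls held, with log2 changes of 2.73, 2.55, 2.08, -1.66 and 0.54 from SESA1 to SESA5.

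**Figure D3:**
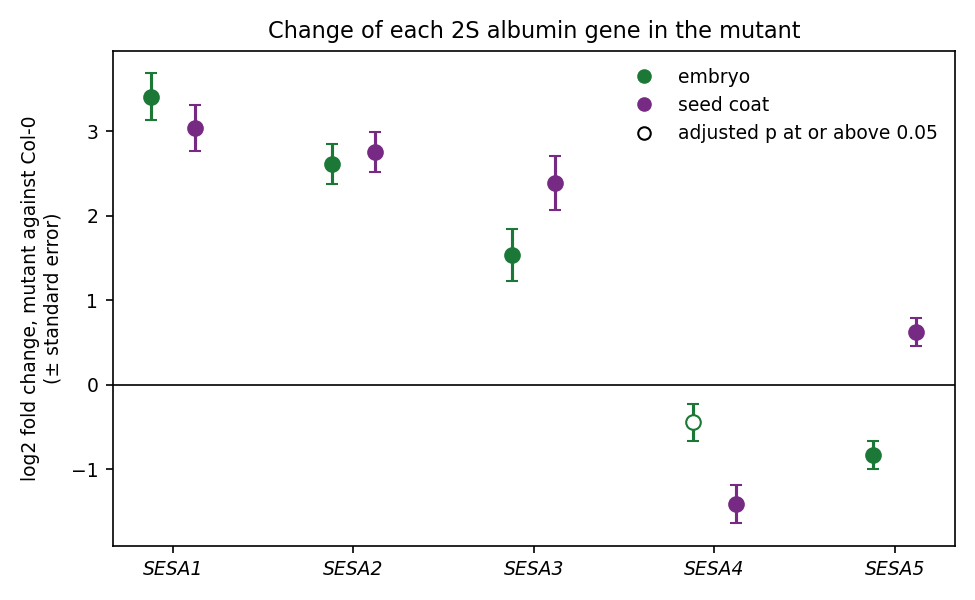
Log2 fold change of each 2S albumin gene, mutant against Col-0, in the embryo (green) and the seed coat (purple), with standard errors from the edgeR fit over 12 libraries; the open point (SESA4 in the embryo) had an adjusted p of 0.115. SESA1, SESA2 and SESA3 lie above 0 in both tissues, SESA4 below 0 in both, and SESA5 at -0.83 (embryo) and 0.63 (seed coat).

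Whether the mutant effect differed between the tissues was tested as the seed coat effect minus the embryo effect. SESA5, which moved in opposite directions, differed by a log2 of 1.46 (SE 0.23, edgeR adjusted p = 0.00355), in a comparison in which 5.74% of tested genes were called, 2.02% with a higher and 3.72% with a lower value in the seed coat. The differences of SESA1 (log2 -0.37, SE 0.36) and SESA2 (log2 0.14, SE 0.32) had edgeR adjusted p of 0.616 and 0.852. Those of SESA3 (log2 0.85, SE 0.43) and SESA4 (log2 -0.97, SE 0.31) had edgeR adjusted p of 0.286 and 0.0928. Without the Col-0 seed coat library numbered 1, SESA4 was called (log2 -1.22, adjusted p = 0.0116). The labels give replicate numbers and do not say what a shared number means. Within a genotype, deviations of embryo and seed coat libraries of the same number correlated at 0.16 to 0.51. Those of different numbers correlated at -0.44 to 0.22, so the ranges overlapped. With each same-numbered pair as a block SESA3 (log2 0.89, adjusted p = 0.000252) and SESA4 (log2 -0.93, adjusted p = 0.000389) were called as well. Under that block 2579 genes, or 15.9% of those tested, were called for the difference, against 932 without it.

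Between tissues of Col-0, SESA5 was the member with the largest difference. Its level in the seed coat was 28.3% of that in the embryo (log2 -1.82, SE 0.17, edgeR adjusted p = 3.76e-06). SESA2 was higher in the seed coat by a log2 of 1.47 (SE 0.23, edgeR adjusted p = 0.000255). SESA1 was also called higher, by a log2 of 0.76 (SE 0.26, edgeR adjusted p = 0.0284), although its libraries overlapped. The call of SESA1 was lost when only the Col-0 libraries were fitted (adjusted p = 0.0841), with total reads as the only scaling (log2 0.27, adjusted p = 0.336), and without any of 4 libraries in turn (Col-0 embryo 1 or 3, Col-0 seed coat 2 or 3, adjusted p 0.0867 to 0.1202).

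SESA3 (log2 -0.42, SE 0.30) and SESA4 (log2 0.20, SE 0.22) were not called between the Col-0 tissues, with edgeR adjusted p of 0.281 and 0.483. With the pairs as a block SESA3 was called (log2 -0.46, adjusted p = 0.000600), where 56.7% of tested genes were called. SESA4 was called without the Col-0 seed coat library numbered 1 (log2 0.45, adjusted p = 0.0480), and its sign turned with total reads as the only scaling (log2 -0.28, adjusted p = 0.217). In all, 3 of 5 members were called, 2 higher and 1 lower, where 46.6% of tested genes were called, 24.4% higher and 22.2% lower. Libraries of the Col-0 tissues did not overlap for SESA2 and SESA5, as for 55.7% of tested genes.

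In the mutant the tissues were closer for SESA5, with the seed coat at 77.8% of the embryo level (log2 -0.36, SE 0.16, edgeR adjusted p = 0.107). SESA2 was higher in the mutant seed coat (log2 1.61, SE 0.23, edgeR adjusted p = 0.000163) and SESA4 lower (log2 -0.77, SE 0.22, edgeR adjusted p = 0.0169). The call of SESA4 was lost without mutant seed coat 2 or 3 (adjusted p = 0.0645 and 0.0664). SESA1 (log2 0.39, SE 0.25) and SESA3 (log2 0.43, SE 0.30) were not called, with edgeR adjusted p of 0.256 and 0.297. Thus 2 of 5 members were called, against 34.9% of tested genes, and the libraries of all 5 members did not overlap, as for 48.1% of tested genes. SESA1 was called without the Col-0 seed coat library numbered 1 (log2 0.39, adjusted p = 0.0308). With the pairs as a block all 5 members were called, SESA1 at adjusted p = 0.0321, SESA3 at 0.00127 and SESA5 at 0.00943, where 45.7% of tested genes were called.

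Marker genes of the parted tissues were read beside these differences. Of 8 tested embryo markers (12 listed), 7 were lower in Col-0 seed coat than in the embryo and 1, WOX2, was higher. Of all tested genes, 22.2% were lower and 24.4% higher in this comparison. Seed coat levels of these markers in Col-0 are given as percent of the embryo level. They ran from 0 (PLT2) over 2.58% (PLT1 and HB-8), 8.26% (STM), 37.7% (PHB), 69.1% (REV) and 70.0% (SCR) to 176% (WOX2). PLT2, PLT1, STM and HB-8 were low even in Col-0 embryo, at 1.67, 1.35, 1.03 and 0.860 CPM, so their percents rest on few reads. SESA5, at 28.3%, lay between STM and PHB. The range is so wide that SESA1 (169%), SESA3 (74.8%) and SESA4 (115%) lay within it too, with SESA2 (277%) above it. In the mutant 6 of the markers were lower and 2 not called, where 18% of all tested genes were lower and 16.9% higher. The marker levels ran from 0 (HB-8, which stood at 0.180 CPM in the embryo) over 3.66% (PLT1), 8.27% (PHB), 9.79% (PLT2), 11.4% (STM), 43.2% (REV) and 74.8% (SCR) to 129% (WOX2). SESA5, at 77.8%, lay above all of these markers except WOX2. The summed level of the list was 67.6 to 74.7 CPM in Col-0 embryo and 54.3 to 63.5 CPM in Col-0 seed coat, and 52.6 to 57.8 CPM and 40.4 to 45.3 CPM in the same tissues of the mutant.

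The endosperm list had 3 of 10 genes tested, and they went different ways. EPR1, nearly all of the list's reads, stood in the embryo at 0.118% (Col-0) and 0.0927% (mutant) of its seed coat level. AGL62 stood in the embryo at 103% and 55.2%, and NCED6 at 33.4% and 165%, of their seed coat levels in Col-0 and the mutant. NCED6, an abscisic acid synthesis gene, rose in the mutant embryo from 0.708 ± 0.328 to 20.8 ± 4.92 CPM (log2 4.88, edgeR adjusted p = 4.15e-07) and in the seed coat from 2.12 ± 0.944 to 12.7 ± 3.24 CPM (log2 2.62, edgeR adjusted p = 3.33e-05). The list summed to 174 to 199 CPM in embryos of Col-0 and 137 to 250.3 CPM in those of the mutant. In the seed coats it summed to 134903 to 164679 CPM for Col-0 and 184353 to 202238 CPM for the mutant, without overlap. Between these seed coats, libraries did not overlap for 55.5% of tested genes either. EPR1 itself was not called there in the mutant against Col-0 (log2 0.32, SE 0.26, edgeR adjusted p = 0.323). The seed coat list, 8 of 13 tested, had 3 genes higher in Col-0 seed coat than in the embryo, 2 lower and 3 not called. In the mutant these counts were 4, 1 and 3. They stand beside the shares of all tested genes given with the embryo markers. The seed coat list summed to 243 to 321 and 133 to 159 CPM in the embryos of Col-0 and mutant and to 262 to 311 and 229 to 358 CPM in the seed coats. The tannin genes TT8, TT10, TT2 and TT1 had 0 reads in both embryo groups. Of these only TT10 was tested, and its seed coat means were low too, 0.937 CPM (Col-0) and 1.20 CPM (mutant). The 2 genes lower in the seed coat of Col-0 were AT2G47670 and GATL5. ARA12 held most of the list's reads. Its Col-0 means were 281 CPM (embryo) and 249 CPM (seed coat), a difference that was not called (edgeR adjusted p = 0.424). In the mutant ARA12 was higher in the seed coat (log2 0.78, edgeR adjusted p = 0.00340). The part of these shifts in the changes of the 2S albumins was not tested.

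As a whole, the family took up 4.20%, 3.94% and 4.23% of gene reads in embryos of Col-0 and 2.40%, 2.47% and 2.30% in those of the mutant. It took up 0.876%, 1.25% and 1.01% in seed coats of Col-0 and 1.68%, 1.78% and 1.77% in those of the mutant. The mutant libraries were all lower in the embryo and all higher in the seed coat, by -1.73 and 0.699 percentage points (exact two-sided permutation p = 0.1 each, the smallest that 3 against 3 can give). On TMM-scaled sizes the drop in the embryo was smaller, from a summed 31347 ± 1761 to 23183 ± 423 CPM, and the rise in the seed coat larger, from 11092 ± 2450.3 to 22538 ± 966 CPM. The 4 tandem genes alone went from 0.413 ± 0.0973% to 0.756 ± 0.0476% of gene reads in the embryo and from 0.292 ± 0.0962% to 0.789 ± 0.0195% in the seed coat. SESA5 alone went from 3.71 ± 0.198% to 1.64 ± 0.0406% in the embryo and from 0.755 ± 0.1196% to 0.956 ± 0.0714% in the seed coat.

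Shares within the family do not depend on scaling between libraries. SESA1 made up 0.196 ± 0.0456% of 2S albumin reads in embryos of Col-0 and 2.80 ± 0.0338% in those of the mutant, a difference of 2.61 points (exact permutation p = 0.1). In the seed coat it made up 0.910 ± 0.274% and 3.79 ± 0.325%, a difference of 2.88 points (exact permutation p = 0.1). SESA2 went from 0.309 ± 0.0889% to 2.55 ± 0.204% in the embryo and from 2.39 ± 0.222% to 8.02 ± 0.119% in the seed coat. SESA3 gained the most points, from 5.65 ± 1.75% to 22.4 ± 0.531% and from 11.7 ± 3.50% to 31.1 ± 2.02%. SESA4 kept the same mean share in the embryo, 3.89 ± 0.581% and 3.87 ± 0.172% with overlapping libraries, while in the seed coat it went from 12.5 ± 2.29% to 2.34 ± 0.379%. SESA5 went from 90.0 ± 2.41% to 68.4 ± 0.898% in the embryo and from 72.5 ± 6.25% to 54.7 ± 2.47% in the seed coat. None of these pairs overlapped except SESA4 in the embryo.

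**Figure D4:**
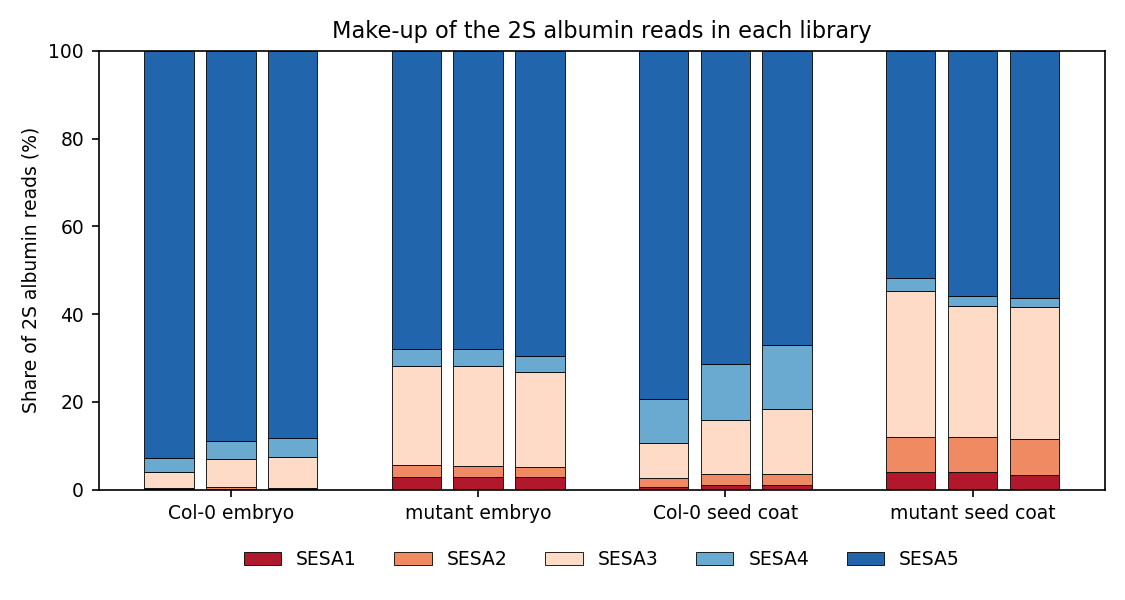
Share of 2S albumin reads (%) taken by each of the 5 genes, with 1 bar per library and 3 libraries per group. SESA5 (dark blue) takes a mean of 90.0% in Col-0 embryo and 54.7% in mutant seed coat, and SESA3 (lightest) rises from 5.65% to 31.1% between the same groups.

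Levels of different genes were compared per length, as CPM per kb of transcript. SESA5 was first in every group, at 33954 ± 1521 (Col-0) and 19105 ± 346 (mutant) CPM per kb in embryos and 9616 ± 1822 (Col-0) and 14866 ± 1094 (mutant) CPM per kb in seed coats. Among 16138 genes with a length it ranked 2, 4, 6 and 7 in these groups. In Col-0 embryo SESA3 (2324 ± 804 CPM per kb) and SESA4 (1777 ± 330.2) followed and overlapped, and SESA2 (132 ± 37.8) and SESA1 (86.9 ± 17.4) came last and overlapped. In mutant embryo the order was SESA5, SESA3 (6753 ± 239), SESA4 (1305 ± 58.9), SESA1 (924 ± 28.1) and SESA2 (806 ± 72.3), with no overlap between neighbours.

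In Col-0 seed coat SESA4 (2039 ± 667 CPM per kb) and SESA3 (1740 ± 728) overlapped, followed by SESA2 (365 ± 109) and SESA1 (147 ± 61.6), which did not. In mutant seed coat the order was SESA5, SESA3 (9129 ± 601), SESA2 (2461 ± 137), SESA1 (1212 ± 57.5) and SESA4 (766 ± 113), again without overlap. SESA4 thus stood second by its mean in Col-0 seed coat and last in mutant seed coat. SESA1 moved from rank 605 to 90 among all genes in the embryo and from 437 to 86 in the seed coat, while SESA4 moved from 32 to 73 and from 41 to 122.

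Across the 12 libraries, log2 CPM of SESA1 correlated with that of SESA2 and SESA3 at r = 0.93 each, and SESA2 with SESA3 at r = 0.84. SESA4 correlated with these 3 genes at -0.69, -0.73 and -0.63, although it lies next to SESA3. SESA5 correlated with the others between -0.43 and 0.089. These correlations describe 12 libraries that share 4 groups and their depth, and most of the spread is between groups.

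The genes most like each member by the same measure were listed, up to 3 per member. For SESA1 they were the metacaspase gene MC3 (r = 0.99), AT1G66900 and the bZIP factor gene bZIP68. MC3 went from 1.22 ± 0.305 to 24.7 ± 4.54 CPM in embryos and in seed coats from 2.12 ± 0.770 to 29.7 ± 3.89 CPM. For SESA2 they were GUS2 (r = 0.99), AT1G77370 and AT4G23050, all 3 with smaller steps between groups than SESA2 itself. For SESA3 they were the vicilin-like cupin gene AT2G28490 (r = 0.98), the LOB-domain factor gene LBD40 and AT5G16200.

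SESA4 was most like AT1G09320 (r = 0.96), the histone deacetylase gene HDA15 and AT5G26800. HDA15 stood at 25.2 ± 4.57 CPM in seed coats of Col-0 and 16.4 ± 1.53 CPM in those of the mutant. SESA5 was most like AT2G20450 (r = 0.95) and the vicilin gene PAP85 (r = 0.95). PAP85, another major storage protein gene, went from 25507 ± 1735 to 16917 ± 2204 CPM in embryos and in seed coats from 6946 ± 656 to 14167 ± 1898 CPM. These are the directions of SESA5, which its choice by likeness over the same libraries favours.

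The genes around the array were looked at for the same changes. Among the 5 annotated genes on each side, 5 in all were tested. Directly before SESA1, AT4G27130 stood at 316 ± 49.0 and 378 ± 30.5 CPM in the embryo (log2 0.26, edgeR adjusted p = 0.0889) and at 408 ± 22.8 and 512 ± 34.3 CPM in the seed coat (log2 0.33, edgeR adjusted p = 0.0378). AT4G27120 was higher in both tissues by a log2 of 0.39 and 0.32, and AT4G27100 was lower in both by a log2 of -0.51 and -0.85 (edgeR adjusted p 0.00239 to 0.0443 over these 4 tests). Directly after SESA4, the kinesin gene ATK2 was not called (log2 -0.46 and -0.63, edgeR adjusted p = 0.0917 and 0.0516). AT4G27190 was called higher (log2 2.16 and 3.41, edgeR adjusted p = 0.00393 and 0.000155), with only 91 reads over all 12 libraries. The genes directly beside the array thus showed smaller log2 changes than SESA1, SESA2 and SESA3.

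The 4 other genes with the shared upstream element were AT1G54860, AT2G28490, AT2G38610 and PSB28, a photosystem II gene. In the embryo 3 of these 4 rose and 1 was not called, where 25.4% of all tested genes were called higher. The median log2 change of the 4 was 1.16 beside 0.0025 over all genes. In the seed coat all 4 were called higher, as were 24.8% of all tested genes, with a median of 1.60 beside -0.0038. AT2G28490 is not a separate case, as it is also in the globulin list below and was the gene most like SESA3. PSB28 was low, at 1.45 ± 0.476 CPM in Col-0 seed coat and 8.45 ± 1.34 CPM in mutant seed coat. Whether the element has a part in these rises was not tested. AT1G54860 rose from 468 ± 67.0 to 1523 ± 173 CPM in embryos and in seed coats from 645 ± 34.9 to 1994 ± 239 CPM. AT2G38610, an RNA-binding protein gene, stood at 23.6 ± 3.32 and 28.6 ± 5.36 CPM in the embryo (log2 0.27, edgeR adjusted p = 0.159). The element also stands before SESA4, which was lower in the mutant seed coat, and before SESA5, which was lower in the mutant embryo.

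The other large class of storage proteins, the globulins, had 4 of 8 genes higher, 2 lower and 2 not called in the embryo (median log2 0.44), and 7 higher, 0 lower and 1 not called in the seed coat (median log2 1.38). The shares to read this and the following lists against are those of all tested genes, 25.4% higher and 21.4% lower in the embryo and 24.8% higher and 23.5% lower in the seed coat, with medians of 0.0025 and -0.0038. The minor globulins AT4G36700 (log2 2.41 and 2.96) and AT1G03890 (log2 2.96 and 2.92) rose in both tissues. The abundant PAP85 (log2 -0.59 and 1.03) fell in the embryo and rose in the seed coat, as did SESA5, whereas the cruciferin CRU2 fell in the embryo (log2 -1.25) and was not called in the seed coat (log2 -0.046, edgeR adjusted p = 0.902). The 2S albumins made up 38.4 ± 2.91% of the reads of both classes in embryos of Col-0 and 35.1 ± 2.01% in those of the mutant, and 44.8 ± 2.44% and 42.2 ± 2.55% in the seed coats. Their share of storage protein reads thus overlapped between genotypes in both tissues.

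Of the regulators that activate storage genes, 7 of 10 tested (12 listed) were higher, 0 lower and 3 not called in the embryo (median log2 0.56), and 5 higher, 0 lower and 5 not called in the seed coat (median log2 0.62). FUS3 went from 2.58 ± 0.682 to 23.9 ± 2.53 CPM in embryos and in seed coats from 35.5 ± 7.97 to 105 ± 25.5 CPM (log2 3.20 and 1.56). ABI3 rose by a log2 of 1.40 and 1.30, ABI5 by 0.95 and 0.86, and the bZIP gene EEL by 0.40 and 2.07. Of the repressors, 3 of 6 tested (7 listed) were lower, 0 higher and 3 not called in the embryo (median log2 -0.41), and 3 were lower, 1 higher and 2 not called in the seed coat (median log2 -0.12). The B3-type repressor genes HSI2 (log2 -0.42 and -0.71) and HSL1 (log2 -0.54 and -0.71) and the Polycomb gene SWN (log2 -0.57 and -0.40) fell in both tissues. Their relative VAL3 rose in the seed coat (log2 2.57), from a low level of 0.535 ± 0.241 to 3.06 ± 1.06 CPM. It was not called in the embryo (log2 -0.40, edgeR adjusted p = 0.327).

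Among the proteases that cut or trim storage proteins in the vacuole, 2 of 7 were higher, 0 lower and 5 not called in the embryo (median log2 0.15), and 3 higher, 1 lower and 3 not called in the seed coat (median log2 0.34). The 2 of 7 and 4 of 7 called stand beside 46.9% and 48.4% of all tested genes. The vacuolar processing enzyme gene GAMMA-VPE rose from 52.5 ± 4.62 to 296 ± 28.8 CPM in embryos and in seed coats from 83.3 ± 6.94 to 374 ± 31.7 CPM (log2 2.49 and 2.17). BETA-VPE, the main processing enzyme gene of seeds, rose by a log2 of 0.46 and 0.49. DELTA-VPE had 0 reads in both embryo groups and fell in the seed coat from 1.09 ± 0.158 to 0.143 ± 0.129 CPM.

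Genes for sorting to the vacuole had 4 of 9 higher, 1 lower and 4 not called in the embryo (median log2 0.16), and 2 higher, 1 lower and 6 not called in the seed coat (median log2 0.084). The 5 of 9 and 3 of 9 called stand beside the same shares. The retromer gene VPS35A (log2 0.94 and 1.07) and GRV2 (log2 0.79 and 0.27) rose in both tissues, and the sorting receptor gene VSR4 fell in both (log2 -0.39 and -0.60). Genes for disulfide formation and folding in the endoplasmic reticulum had 2 of 6 higher, 2 lower and 2 not called in the embryo (median log2 0.043), and 4 higher, 0 lower and 2 not called in the seed coat (median log2 0.78). The disulfide isomerase gene PDIL1-2 fell in the embryo and rose in the seed coat (log2 -0.62 and 0.82), the 2 directions SESA5 took. The thiol oxidase gene ERO1 (log2 1.41 and 2.03) and the chaperone gene BIP1 (log2 0.55 and 1.50) rose in both tissues.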

How the data were processed

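The authors deposited gene counts for 12 libraries. Per the submitters' processing notes, bcl2fastq 2.19, fastp 0.12.4 and STAR 2.7.9a and the genome build TAIR10 were used. The combined count table equals the reverse-strand column of the deposited per-library STAR files in all 12 libraries, and 4 summary entries were left out. Per the labels' protocols, libraries were stranded, poly(A)-selected and carried molecular identifiers, with deduplication not given in the sources used here. Reads mapping to several places made up 2.61% to 4.36%.

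Counts were filtered with filterByExpr (minimum count 10, minimum total 15), scaled by TMM and fitted with edgeR 4.0.16 in R 4.3.3 as 4 group means over all 12 libraries; the steps were tested on simulated data. Log2 CPM for correlations used a prior count of 2. Shares were compared with exact permutation tests (SciPy 1.17.1). Promoters, motifs and identities came from the RefSeq TAIR10.1 reference. Deviations from group means correlated at 0.16 to 0.51 between embryo and seed coat libraries of the same genotype and number. Those of the same genotype and different numbers correlated at -0.44 to 0.22. The main fit did not use pairs. Same-numbered tissues of a genotype were treated as pairs only in an alternative fit. That pairing is a hint from the data and is not stated in the labels. Between genotypes, same-numbered libraries correlated at -0.47 to -0.036.

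Members and gene lists were chosen with earlier results of these data known. Named genes are all 5 members, up to 3 genes with the smallest adjusted p per list and contrast with others needed to state a count, the 3 genes most like each member (1 of them is not reported here), and the tested genes among the 5 on either side of the array; the genes sharing the upstream element and the markers were added after values were seen. Alternatives were RLE and total-read scaling, TMM without storage genes, no filter, unstranded counts, leaving out each library, replicate blocks, fits of only the groups compared and DESeq2 1.42.0.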

Additional observations from a re-analysis of the deposited data

Results flagged for a closer look

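The mutant effect on SESA5 differed between the tissues by a log2 of 1.46 (seed coat minus embryo, edgeR adjusted p = 0.00355; 1.47 with same-numbered tissues of a genotype as a block, adjusted p = 6.11e-06), with the mutant lower in all 3 embryo libraries and higher in all 3 seed coat libraries than every Col-0 library. With that block, the effect also differed for SESA3 by 0.89 (adjusted p = 0.000252) and for SESA4 by -0.93 (adjusted p = 0.000389).

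Reads on the strand opposite to the 3 genes that rose, which no comparison uses, were more numerous in each mutant library than in each Col-0 library of the tissue. Their mean per mutant library was 3.33 (embryo) and 8 (seed coat) for SESA1, 10.7 and 23.7 for SESA2, and 25.3 and 29.3 for SESA3, against 0 to 9 in any Col-0 library. They made up at most 0.152% of a gene's strand-assigned reads, against 3.63% to 5.60% over all genes. The counts were not scaled, and reads on the genes' own strand rose too. Mean shares in Col-0 and the mutant were 0% and 0.0311% (embryo) and 0.0883% and 0.0836% (seed coat) for SESA1. For SESA2 they were 0.0299% and 0.111%, then 0.0777% and 0.113%, and for SESA3 0.0213% and 0.0298%, then 0.0102% and 0.0378%. Shares of single libraries overlapped except for SESA1 in the embryo and SESA3 in the seed coat.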

How the results depend on the processing

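The calls of all 5 members in the seed coat, and of SESA1, SESA2, SESA3 and SESA5 in the embryo, held under every alternative tried, as did the order of levels per length under the alternatives tried for it. SESA4 in the embryo was called with total reads only (log2 -0.79) and with only the embryo libraries (-0.50), and ranged from -0.58 to -0.32 with a library left out. Scaling by total reads moved the median log2 of all genes to -0.35 (embryo), -0.30 (seed coat), -0.46 (tissues of Col-0) and -0.43 (tissues of the mutant). It split the calls into 2296 higher and 6882 lower, 2413 and 6189, 1635 and 8601, and 1282 and 8168, the last 9450 in all against 5669. Between the Col-0 tissues it gave 0.27 for SESA1, -0.89 for SESA3 and -0.28 for SESA4; between the mutant tissues, -0.020 for SESA1 and -0.77 for SESA5.

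With same-numbered tissues of a genotype as a replicate block, 2579 genes and 3 members were called for the difference (SESA3 0.89, SESA4 -0.93), SESA3 (-0.46) between the Col-0 tissues, and all 5 members between the mutant tissues (SESA1 0.39, SESA3 0.43, SESA5 -0.36). The block changed no other call of a member. The replicate number as a block over all libraries changed none. Fits of only the groups compared gave 0.73 for SESA1 in Col-0 and called 4 members between the mutant tissues (SESA1 0.39, SESA3 0.44). DESeq2 called 2 members for the difference (SESA4 -0.93) and SESA5 between the mutant tissues (-0.34).

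With 1 library left out, the difference had 476 to 844 genes and 1 to 2 members called, with SESA2 at -0.065 to 0.37 and SESA4 at -1.22 to -0.79. The lowest counts were 476, 518, 523 and 563 genes, without mutant embryo 1, mutant seed coat 3, mutant seed coat 1 and mutant embryo 3. Between the Col-0 tissues SESA1 ranged from 0.55 to 1.08 and SESA4 from 0.021 to 0.45. Between the mutant tissues 1 to 3 members were called, with SESA1 at 0.38 to 0.45 and SESA4 at -0.88 to -0.66. The cause of these changes was not tested. The lowest count of a member in any library was 804 reads.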
